A study of Mus musculus with 44 samples.

Results

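Progression of a cell from G1 into S phase is set by cyclin-dependent kinases, by the cyclins that activate them and by inhibitor proteins that bind both. The genes described here are 10 parts of that switch, of 46831 genes in the count table: the D-type cyclins Ccnd1, Ccnd2 and Ccnd3, the E-type cyclins Ccne1 and Ccne2, the kinases Cdk2, Cdk4 and Cdk6, and the inhibitors Cdkn1a (p21) and Cdkn1b (p27). They were taken as the rows of the table that carry those symbols, and all 10 passed the filter on low counts in every comparison.

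D-type cyclins pair with Cdk4 and Cdk6 in early G1 and begin to phosphorylate the retinoblastoma protein, which releases E2F transcription factors. E-type cyclins then pair with Cdk2 and complete that step at the entry into S phase. p21 and p27 bind cyclin and kinase together and restrain Cdk2, and p21 is known as a target of p53, while p27 is known for its place in quiescent cells.

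The libraries came from long bone of C57Bl6 mice at postnatal day 3 that had received no treatment. Bone cells were sorted by surface antigens into skeletal stem cells (SSC), pre-BCSP, bone, cartilage and stromal progenitors (BCSP), pro-chondrogenic progenitors (PCP), the THY and 6C3 subpopulations, B-cell lymphocyte stromal progenitors (BLSP) and cells that express hepatic leukemia factor (HEC). RNA of each population was split into an input library, which measures mRNA, and a library from immunoprecipitation (IP) with an antibody against N6-methyladenosine (m6A), a method named SLIM-seq. Each of the 8 populations has 2 WT replicates of both kinds, and SSC, pre-BCSP and BCSP also have 2 replicates labelled Mettl3cko, which makes 44 libraries.

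Mettl3 encodes the catalytic subunit of the m6A methyltransferase. In the study the deletion was made in mice with floxed Mettl3 alleles and a Col2a1-Cre transgene, so that it is driven in cells that use the type II collagen promoter, and floxed animals without Cre were named WT. The titles give the Mettl3cko genotype, whereas the labels' own genotype field says wild type throughout, and the number of animals in a library is not given in the sources used here. SSC, pre-BCSP and BCSP are called stem and progenitor populations below, and PCP, THY, BLSP, 6C3 and HEC are called downstream. The study calls its replicates independent biological experiments, while the labels do not say which animals each library holds, and p-values measure the spread between these libraries.

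Depth ranged from 19795666 to 44046651 counts in WT input libraries and from 16480027 to 35856651 in WT IP libraries, and from 22056571 to 35325482 in the Mettl3cko libraries. Replicate libraries correlated over genes with r from 0.955 to 0.977 in WT input and from 0.803 to 0.844 in Mettl3cko IP, which is the least reproducible set. The sort was visible in the mRNA: Thy1 lay between 17.3 and 34.3 CPM (read counts scaled to a common library size) in THY, BLSP and PCP and at 0.430 CPM or less in the other WT populations, and Enpep, which encodes the 6C3 antigen, lay between 40.3 and 55.4 CPM in 6C3 and HEC and at 8.60 CPM or less elsewhere. Of 5 osteoblast markers, Col1a1 was read at 4168 to 11179 CPM in the WT stem and progenitor libraries and at 66132 to 143249 CPM downstream, whereas Ibsp, Bglap, Sp7 and Runx2 overlapped between both sets (Ibsp at 53.3 to 3327 CPM against 3.04 to 2570 CPM). The summed level of 4 chondrocyte markers was 79586 to 96316 CPM in the WT stem and progenitor libraries, 39958 to 92458 CPM in 6C3 and HEC and 7395 to 19382 CPM in PCP, THY and BLSP. The summed level of 5 blood markers was 0.528 to 4.35 CPM in WT stem and progenitor libraries, 11.2 to 86.3 CPM downstream and 7.18 to 30.4 CPM in the Mettl3cko libraries. Most of the higher sums came from the globin genes Hba-a1 and Hbb-bs, at 22.1 and 6.87 CPM in Mettl3cko SSC replicate 1. Ptprc was at 0 in all WT stem and progenitor libraries and at 0.813 CPM or less downstream. Of the Mettl3cko libraries it was above 0 only in pre-BCSP replicate 2 (2.19 CPM). The summed level of 4 endothelial markers was 78.3 to 80.2 CPM in PCP, 8.40 to 18.4 CPM in BCSP and 9.66 CPM or less in the other WT populations. The part of these cells in the results below was not tested. In bulk RNA, fewer cells that express a gene and less RNA per cell cannot be told apart.

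In the GRCm38 annotation the D-type cyclin genes lie at chr7:144929931-144939925 (Ccnd1), chr6:127125162-127152193 (Ccnd2) and chr17:47505051-47599691 (Ccnd3). Ccne1 lies at chr7:38097984-38107534 and Ccne2 at chr4:11191351-11204779. The kinase genes lie at chr10:128697939-128705031 (Cdk2), chr10:127063534-127067920 (Cdk4) and chr5:3341485-3531008 (Cdk6), and the inhibitors at chr17:29090976-29100727 (Cdkn1a) and chr6:134920401-134925513 (Cdkn1b). Exons of a gene on the opposite strand cover 23.4% of the exon bases of Ccnd1 (LTO1), 19.7% of Cdk4 (Tspan31) and 17.4% of Ccne2 (Ints8), and 7.68% or less in the others. The strand setting of the counting is not given in the sources used here, so counts of these 3 genes may hold reads of their partners.

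The m6A methyltransferase acts on adenosines in a short context, of which GGACT is the form searched here on the sense strand of 1 protein-coding transcript per gene. Of the transcripts of 21747 genes, 87.7% held it, with a median of 3 matches and 1.01 matches per kilobase. Cdk6 had 9 matches over 11525 bases, 7 of them in its 3′ UTR, and Cdkn1b had 3, of which 2 lay in its 3′ UTR. Cdkn1a had 4, all in the 3′ UTR, Ccnd3 had 3, of which none lay in the 3′ UTR, and Cdk2 had 4. Ccnd2 had 6 matches, Ccnd1 and Ccne1 had 3 each, Ccne2 had 2 and Cdk4 had 0 in these letters. Among transcripts within 20% of the same length, the share with a match was 100% for Cdk6, 98.4% for Cdkn1b, 88.9% for Cdkn1a, 88.9% for Ccnd3, 91.4% for Cdk2 and 88.5% for Cdk4. Per kilobase, Cdk6 (0.781) and Cdkn1b (0.659) lay below the median of all genes, and Ccnd3 (1.42) and Cdk2 (1.66) lay above it. A match is a stretch of letters and not a measured m6A site.

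One match is printed for each of the 5 members on which the IP results below turn, with 10 bases on each side and the motif in capitals. It is read 5′ to 3′ on the strand of the gene from GENCODE transcripts on GRCm38. The match nearest the end of the stop codon whose window lies within a single exon was taken, so it need not be typical of its transcript. The Cdkn1b window lies in the 3′ UTR in exon 2 on the plus strand (chr6:134922147-134922171), 83 bases after the stop codon, and the Cdkn1a window in the 3′ UTR in exon 3 on the plus strand (chr17:29099839-29099863). The Cdk6 window lies in the coding part of exon 4 on the plus strand (chr5:3429010-3429034) and the Cdk2 window in the coding part of exon 7 on the minus strand (chr10:128699600-128699624). The Ccnd3 window lies in the 5′ UTR in exon 1 on the plus strand (chr17:47505081-47505105).
Cdkn1b: gcagaccccaGGACTgctggcagat
Cdk6: tccgaggtctGGACTttcttcattc
Cdkn1a: aaaatgagtaGGACTttggggtctc
Ccnd3: ggtgcagcgcGGACTttgtaaacac
Cdk2: cggatctttcGGACTctggggaccc

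The first comparison asked how mRNA of the G1 switch differs between skeletal populations. Per length, Cdkn1a was by far the most abundant member, at 369 ± 156 CPM per kilobase of exon (SD, n = 16 WT input libraries). Cdk4 (46.4 ± 4.73), Ccnd2 (43.1 ± 11.7), Ccnd3 (39.0 ± 17.9) and Ccnd1 (29.6 ± 6.67) formed a middle group on the same scale. Cdk6 (9.30 ± 4.42), Cdk2 (8.98 ± 1.86), Cdkn1b (5.78 ± 4.02), Ccne1 (4.92 ± 1.56) and Ccne2 (4.67 ± 1.87) were the least abundant. Length was the union of all annotated exons, 8775 bases for Ccnd3 and 3249 for Cdk4. Their transcripts searched above have 2113 and 2053 bases, so the order of the members depends on the length used. Cdkn1b is counted in 267 to 2631 reads per library and Ccne1 in 151 to 961, against 16982 to 72561 for Cdkn1a. Across the 8 WT populations 4 of the 10 members differed (edgeR's quasi-likelihood test, adjusted p under 0.05): Ccnd3 (adjusted p = 6.64e-06), Cdkn1a (4.97e-05), Cdkn1b (0.000497) and Ccnd2 (0.0141). Of all 20060 genes tested 40.1% passed the same rule, a share close to that of the members.

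Stem and progenitor populations carried more Ccnd3, more Cdkn1a and slightly more Cdk2 mRNA than the downstream populations, and less Cdkn1b, Ccnd1 and Ccnd2. For Ccnd2 the higher downstream levels were those of 6C3 and HEC. Thus 3 of 10 members were higher, beside 23.1% of all genes tested, and 3 of 10 were lower, beside 28.3%. The median log2 difference of the members was -0.23, beside -0.11 over all genes. Ccnd3 and Cdkn1b were the 2 members in which the 6 stem and progenitor libraries lay wholly apart from the 10 downstream libraries, which was so for 16.5% of all genes.

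**Figure D1:**
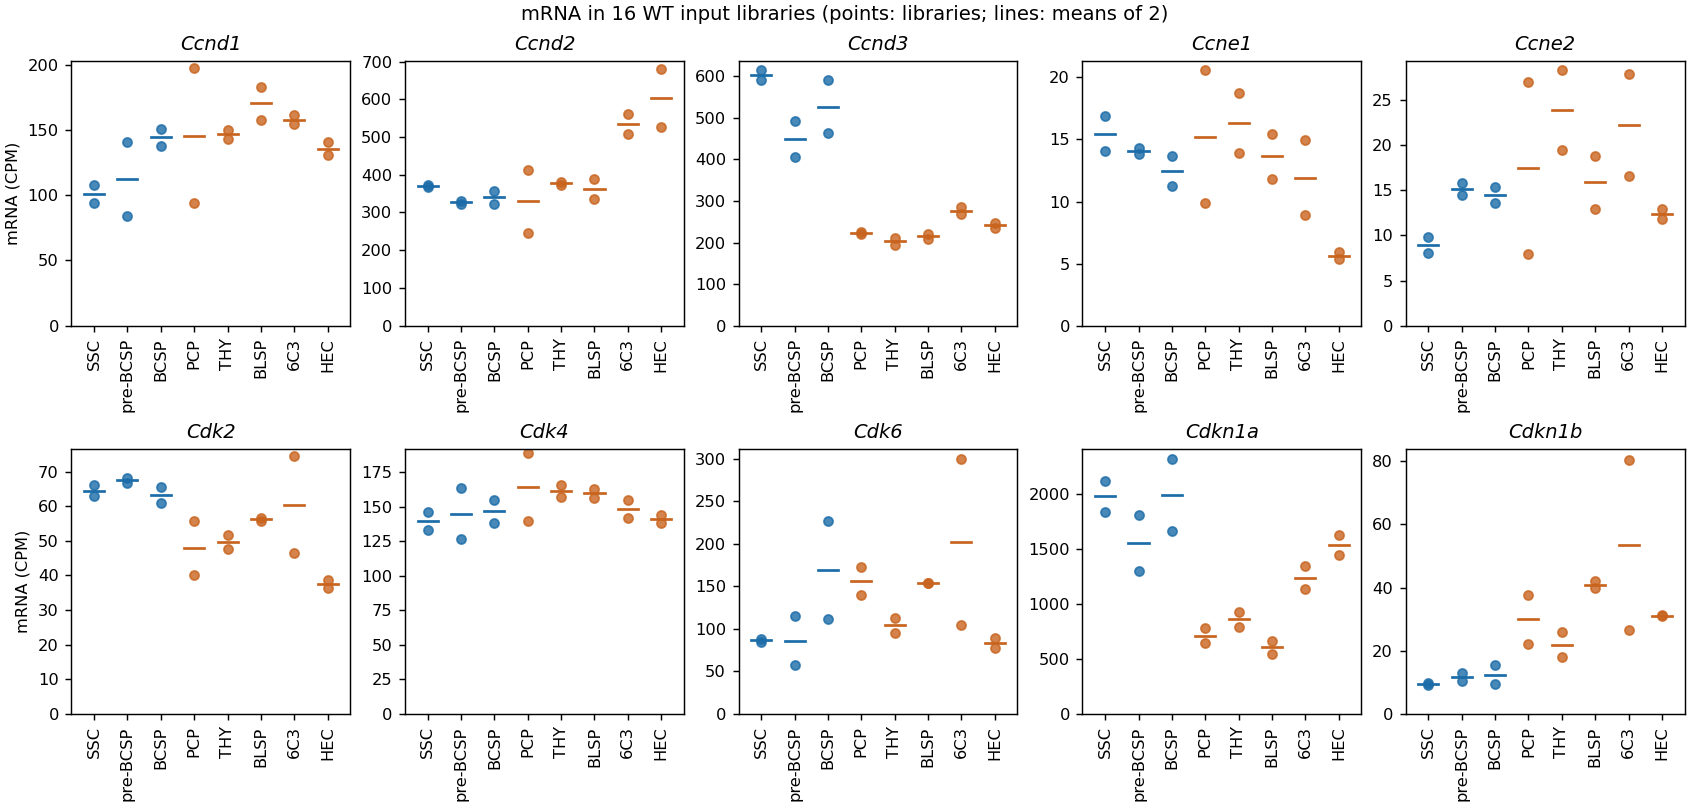
Level of mRNA of each member in the 16 WT input libraries, as CPM on a scale that differs by gene. Points are the 2 replicates of a population and lines are their means. Ccnd3 lies at 406 to 616 CPM in the stem and progenitor libraries and at 195 to 286 CPM downstream, Cdkn1b lies at 9.14 to 15.4 CPM against 17.9 to 80.3 CPM, and Cdk4 is nearly level.

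Ccnd3, the cyclin D3 gene, was read at 592 and 616 CPM in SSC, at 463 and 591 CPM in BCSP and at 406 and 493 CPM in pre-BCSP. Downstream it was read at 268 and 286 CPM in 6C3, 234 and 248 CPM in HEC, 226 and 219.6 CPM in PCP, 209 and 221 CPM in BLSP and 195 and 211 CPM in THY. Every stem and progenitor library was higher than every downstream library, and the replicates of SSC lay above those of BCSP. The log2 difference between both sets of populations was 1.16 ± 0.0926 (SE, adjusted p = 5.31e-08 in edgeR), and SSC exceeded THY by 2.98-fold.

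The other D-type cyclins ran the opposite way and over a narrower range. Ccnd2 was read at 679.5 and 525 CPM in HEC and at 560 and 507 CPM in 6C3, against 322 to 373 CPM in the stem and progenitor libraries. The means of the other downstream populations, THY (377 CPM), BLSP (361 CPM) and PCP (330 CPM), lay near those of SSC (371 CPM), BCSP (340 CPM) and pre-BCSP (327 CPM). PCP reached as low as 246 CPM, so both sets overlapped for Ccnd2. Its log2 difference was -0.34 ± 0.117 (SE, adjusted p = 0.0234). Ccnd1 spanned 84.4 to 151 CPM in stem and progenitor libraries and 94.4 to 197 CPM downstream, again with overlap, and its log2 difference was -0.39 ± 0.149 (adjusted p = 0.0405). Its PCP replicates, at 94.4 and 197 CPM, held both the lowest and the highest downstream value. The Ccnd1 call was lost in 12 of 16 fits that each left out 1 library, with an adjusted p up to 0.163 without pre-BCSP replicate 2, and held without replicate 1 of 6C3, PCP or pre-BCSP or replicate 2 of BLSP. The Ccnd2 call was lost in 6 of 16, up to 0.0612 without BCSP replicate 1, the others being replicate 1 of BLSP, HEC and SSC and either replicate of pre-BCSP. Without HEC replicate 1 Ccnd2 also lost its call among the 8 populations (adjusted p = 0.0957).

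Neither E-type cyclin passed the test. Ccne1 was read at 11.2 to 16.9 CPM in stem and progenitor libraries and at 5.40 to 20.6 CPM downstream, with a log2 difference of 0.22 ± 0.176 (adjusted p = 0.324). HEC was lowest, at 5.90 and 5.40 CPM. Ccne2 was read at 8.01 to 15.8 CPM, against up to 28.3 CPM downstream, with a log2 difference of -0.54 ± 0.221 (adjusted p = 0.0510). The lowest population of Ccne2 was SSC, at 9.82 and 8.01 CPM, and the highest was THY, at 28.3 and 19.4 CPM.

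Of the kinases, Cdk2 passed the test, at 61.0 to 68.2 CPM in stem and progenitor libraries against 36.3 to 74.6 CPM downstream (log2 difference 0.36 ± 0.114, adjusted p = 0.0137). A single 6C3 library, at 74.6 CPM beside 46.4 CPM in its replicate, carried the overlap. Cdk4 was the flattest member: its highest population mean exceeded its lowest 1.17-fold, and its log2 difference was -0.13 ± 0.0995 (adjusted p = 0.286). Cdk6 was the kinase whose replicates differed most, with 299 and 105 CPM in 6C3 and 227 and 111 CPM in BCSP. Its log2 difference was -0.33 ± 0.209 and did not pass the test.

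The inhibitors of the Cip/Kip family moved in opposite directions. Cdkn1a was read at 2121 and 1841 CPM in SSC, 2321 and 1665 CPM in BCSP and 1807 and 1297 CPM in pre-BCSP. Downstream, HEC had 1626 and 1447 CPM, 6C3 had 1133 and 1349 CPM, THY had 794 and 927 CPM, PCP had 647 and 777 CPM and BLSP had 659 and 548 CPM. HEC and 6C3 reached into the range of pre-BCSP, and PCP, THY and BLSP lay below every stem and progenitor library. The summed chondrocyte markers above divide the downstream populations in the same way, and their part in the Cdkn1a levels was not tested. The log2 difference was 0.94 ± 0.112 (SE, adjusted p = 3.47e-06).

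Cdkn1b was read at 9.14 and 9.57 CPM in SSC, 10.4 and 13.04 CPM in pre-BCSP and 15.4 and 9.34 CPM in BCSP. Downstream it was read at 17.9 and 25.8 CPM in THY, 37.7 and 22.1 CPM in PCP, 30.9 and 31.2 CPM in HEC, 39.7 and 42.2 CPM in BLSP and 80.3 and 26.6 CPM in 6C3. All 6 stem and progenitor libraries were below all 10 downstream libraries, and the 6C3 replicates differed most. The log2 difference was -1.64 ± 0.218 (SE, adjusted p = 1.21e-05), which is the widest of the 10 members. The mean of 6C3 exceeded that of SSC by 5.72-fold, but this rests on 6C3 replicate 1. Without that library BLSP was highest and exceeded SSC by 4.38-fold.

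**Figure D2:**
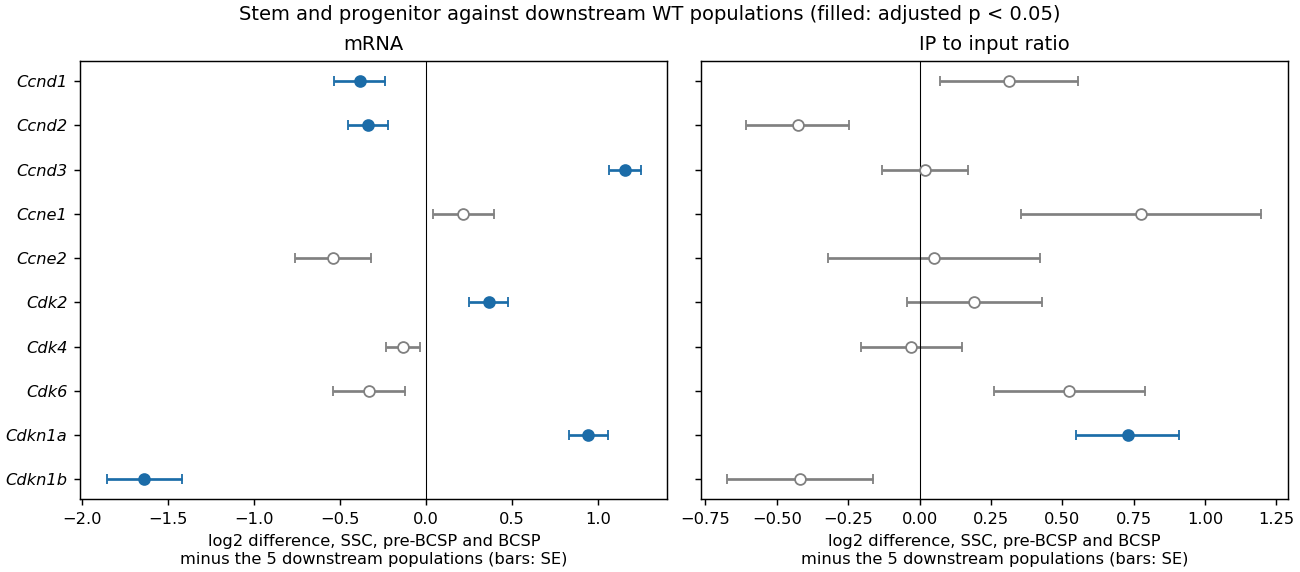
Difference of each member between SSC, pre-BCSP and BCSP and the 5 downstream WT populations, as log2 of mRNA on the left and as log2 of the IP to input ratio on the right, with bars for 1 SE. Filled points have an adjusted p under 0.05 in edgeR: 6 members for mRNA, from -1.64 for Cdkn1b to 1.16 for Ccnd3, and Cdkn1a alone, at 0.73, for the ratio.

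Other genes of the pathway were read in the same contrast, where 23.1% of all genes tested were higher and 28.3% lower in stem and progenitor cells. Of 13 retinoblastoma and E2F genes 11 passed the test, 1 higher and 10 lower in stem and progenitor cells, led by the atypical repressors E2f7 (log2 difference -2.28) and E2f8 (-2.38), the pocket protein gene Rbl1 (-1.66) and E2f1 (-1.58). Among 5 other CDK inhibitor genes 4 could be tested and 3 were lower: Cdkn2c (-1.57), Cdkn1c (-1.57) and Cdkn2b (adjusted p = 0.00241). Thus Cdkn1a was the one tested inhibitor gene with a call in the other direction. Of 8 genes for CDK activation and for turnover of cyclins and inhibitors 4 were higher and 2 lower, among them the CDK-activating kinase genes Cdk7 (0.84) and Mnat1 (0.61), the phosphatase gene Cdc25a (0.67) and the cyclin H gene Ccnh (-0.34). Of 10 S phase and mitosis markers 1 was higher and 7 were lower, with Top2a at -1.84, Mki67 at -2.86, Ccna2 at -1.80 and Mcm2 at -1.45. The summed level of these markers was 314 to 391 CPM in stem and progenitor libraries and 364 to 643 CPM downstream, and its part in the differences of the members was not tested.

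Over the 8 population means of log2 CPM, the protein-coding gene most like Cdkn1a was Fibin (Pearson r = 0.9945 among 15400 genes), followed by Sgms2 (0.987). For Ccnd3 it was Hrct1 (0.993), for Cdkn1b Stard6 (0.973), for Ccne2 the replication gene Mcm5 (0.967) and for Cdk6 Ckmt1 (0.955). For the other members the closest genes were Slc24a5 for Ccnd1 (0.987), Ass1 for Ccnd2 (0.986), Gpr85 for Ccne1 (0.955), 2700049A03Rik for Cdk2 (0.966) and Opcml for Cdk4 (0.978). These values describe 8 points that come from the same libraries.

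The next comparison set IP against input within each WT population, to ask which members carry m6A. A gene was called m6A-tagged, by the rule of the study's methods, at a log2 IP to input ratio above 1 with an unadjusted p under 0.05. Cdkn1b was tagged in all 8 populations and Cdk6 in all but 6C3, and these 15 calls were the only ones among the members. Ccnd3 and Cdk2 lay at the other end, below -1 in all 8 populations. With 2 members tagged in each population and 1 in 6C3, the shares were 20% and 10%, where the share of all genes tagged was 6.67% in BCSP, 10.4% in SSC, 10.6% in PCP, 12% in pre-BCSP, 12.4% in both THY and BLSP, 13.5% in HEC and 14.5% in 6C3.

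**Figure D3:**
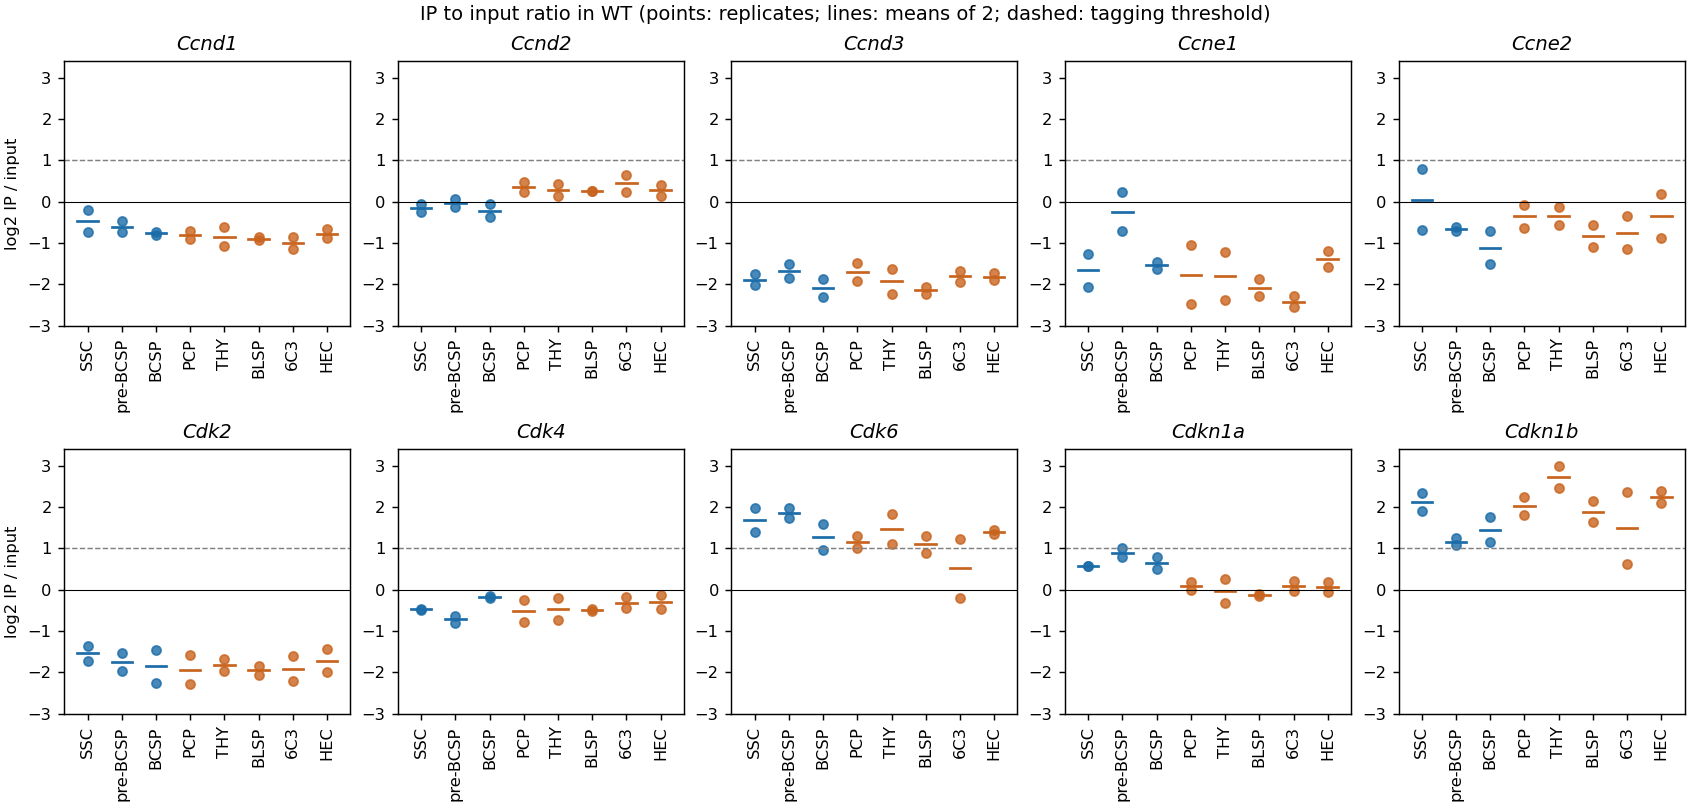
Log2 ratio of IP to input for each member in the 8 WT populations. Points are replicates and lines are their means, and the scale is the same for every gene. Cdkn1b stays above 0 in all 16 replicates and Cdk6 in 15 of 16, Ccnd3 and Cdk2 stay below -1 in all, and Cdkn1a lies higher in SSC, pre-BCSP and BCSP (0.49 to 1.00) than downstream (-0.32 to 0.25).

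The log2 ratio of Cdkn1b, the p27 gene with the window GGACT in its 3′ UTR above, ran from 1.18 ± 0.320 (SE) in pre-BCSP to 2.81 ± 0.238 in THY. It stood at 2.16 in SSC, 1.37 in BCSP, 2.34 in HEC, 2.05 in PCP, 1.99 in BLSP and 1.34 in 6C3. Among all genes tested these values ranked between the percentiles 81.5 in pre-BCSP and 97.6 in THY. The replicates were furthest apart in 6C3, at 0.63 and 2.36. The adjusted p was 0.0672 in 6C3, 0.0943 in BCSP and 0.0554 in pre-BCSP, and under 0.05 in the other 5 populations. The tagged call of Cdkn1b was lost without 6C3 input replicate 2 (0.70), BCSP input replicate 2 (1.05), pre-BCSP IP replicate 2 (0.89) or pre-BCSP input replicate 1 (1.01).

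Cdk6, with the longest transcript of the members, had log2 ratios of 1.74 ± 0.247 in SSC, 1.82 ± 0.408 in pre-BCSP, 1.15 ± 0.362 in BCSP, 1.58 ± 0.206 in THY, 1.49 ± 0.150 in HEC, 1.21 ± 0.230 in PCP and 1.18 ± 0.168 in BLSP. In 6C3 it was 0.38 ± 0.443 (adjusted p = 0.571), where replicate 1 stood at -0.20 and replicate 2 at 1.23. That replicate 1 is also the library with the highest Cdk6 mRNA of all WT input libraries, 299 CPM. The tagged call of Cdk6 was lost without BCSP IP replicate 1 (0.94) or BCSP input replicate 2 (0.72), without BLSP IP replicate 2 (0.89) and without PCP input replicate 1 (0.95).

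The cyclin D3 gene had log2 ratios between -2.15 ± 0.228 in BCSP and -1.61 ± 0.259 in PCP, and Cdk2 between -1.89 ± 0.315 in 6C3 and -1.50 ± 0.274 in SSC. Both were under -1 with p under 0.05 in all 8 populations. Ccne1 was so in 6 populations, from -2.42 in 6C3 to -1.31 in HEC, and not in PCP (-1.30, adjusted p = 0.343) or pre-BCSP (-0.16, adjusted p = 0.829). Members below -1 were thus 3 of 10 in SSC, BCSP, THY, BLSP, 6C3 and HEC and 2 of 10 in pre-BCSP and PCP. The share of all genes below -1 was 11.7% in BCSP, 13.9% in SSC, 14.2% in HEC, 14.5% in PCP, 14.8% in both pre-BCSP and BLSP, 15% in THY and 17% in 6C3.

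The remaining members lay between these ends. Ccnd1 ran from -0.94 to -0.40 and Cdk4 from -0.72 to -0.18, both negative in every population. Ccnd2 ran from -0.27 in BCSP to 0.50 in 6C3, and Ccne2 from -1.14 in BCSP to 0.19 in SSC. Of the wider pathway, the gene of the CDK subunit Cks1b was tagged in 6 populations and the ubiquitin ligase gene Fbxw7 in 5, while the helicase gene Mcm6 was below -1 in 8 and Mcm3 in 6. No gene of the retinoblastoma and E2F list and none of the other inhibitors was tagged in any population.

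The IP to input ratio was then compared between the populations in 1 fit of the 32 WT libraries. None of the members differed among the 8 populations at an adjusted p under 0.05, where 0.485% of all 25365 genes did. Of all genes 2022 had an unadjusted p under 0.05, and Cdkn1a was the 1 member among them (adjusted p = 0.565). The study's methods say that sorted cells of 1 batch were divided between IP and input. With the replicate number taken to mark that pair as a block, Cdkn1a passed also after adjustment (adjusted p = 0.00169 in edgeR). The pairing rests on that statement and was not settled by the counts. DESeq2, which called 1018 genes, called none of the members.

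Between both sets of populations, Cdkn1a was the 1 member of 10 with a higher ratio in stem and progenitor cells, beside 3.06% of all genes. Its log2 ratio by replicate was 0.58 and 0.57 in SSC, 0.79 and 1.00 in pre-BCSP and 0.80 and 0.49 in BCSP. In the downstream populations it was -0.05 and 0.18 in HEC, -0.04 and 0.21 in 6C3, -0.01 and 0.20 in PCP, 0.25 and -0.32 in THY and -0.14 and -0.11 in BLSP. All 6 stem and progenitor replicates lay above all 10 downstream replicates, which was so in either direction for 1.57% of all genes. The difference was 0.73 ± 0.180 (SE, adjusted p = 0.0158 in edgeR, 5.54e-06 with the replicate pair as a block), beside a median of -0.08 over all genes. Mitochondrial genes took 1.56% to 2.92% of the counts in the 6 stem and progenitor IP libraries and 4.53% to 9.10% in the 10 downstream IP libraries, with no overlap, and the part of this in the difference was not tested. With the size factors of DESeq2 it was 0.56 (adjusted p = 0.0675).

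The call of Cdkn1a was lost without 1 of 7 replicates: BCSP replicate 1 (adjusted p = 0.0811), BLSP replicates 1 (0.0944) and 2 (0.0981), HEC replicate 2 (0.0824), SSC replicates 1 (0.0685) and 2 (0.112) and pre-BCSP replicate 2 (0.0508). The difference then ran from 0.56 to 0.70. In no population did Cdkn1a reach the rule for tagged genes, with 0.89 ± 0.191 in pre-BCSP as its highest value.

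Ccnd2 was the other member without overlap, with all 6 stem and progenitor replicates (-0.38 to 0.07) below all 10 downstream replicates (0.13 to 0.64). Its difference was -0.43 ± 0.180 (adjusted p = 0.210, 0.0383 with the replicate pair as a block). Cdk6 differed by 0.52 ± 0.263 with overlap (adjusted p = 0.343, 0.0302 with the block). Of the other inhibitors, Cdkn2c (1.69) and Cdkn1c (1.15) had a higher ratio in stem and progenitor cells, and of the rest of the pathway E2f7 (-3.27), E2f2 (-3.74) and Mcm2 (-1.41) had a lower one. Within BCSP the log2 IP to input ratio was -8.83 ± 2.12 (SE) for E2f7 and -6.20 ± 1.89 for E2f2. Ratios that far below 0 can rest on few IP reads, so the sizes for E2f7 and E2f2 are uncertain.

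The last comparison asked how the members change in SSC, pre-BCSP and BCSP labelled Mettl3cko. Mettl3 itself, counted over the whole gene, was read at 12.2 to 19.9 CPM in the 6 WT libraries and 16.5 to 23.2 CPM in the 6 Mettl3cko libraries, with a mean log2 change of 0.25 ± 0.150 (adjusted p = 0.362). Its count was thus not lower in the libraries labelled Mettl3cko. The study checked the deletion with other assays, which are not analysed here. The excised exons are not given in the sources used here, and reads of the remaining exons and of Tox4, whose exons cover 18.4% of its exon bases on the opposite strand, enter the count. Each direction below is drawn from the labels.

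**Figure D4:**
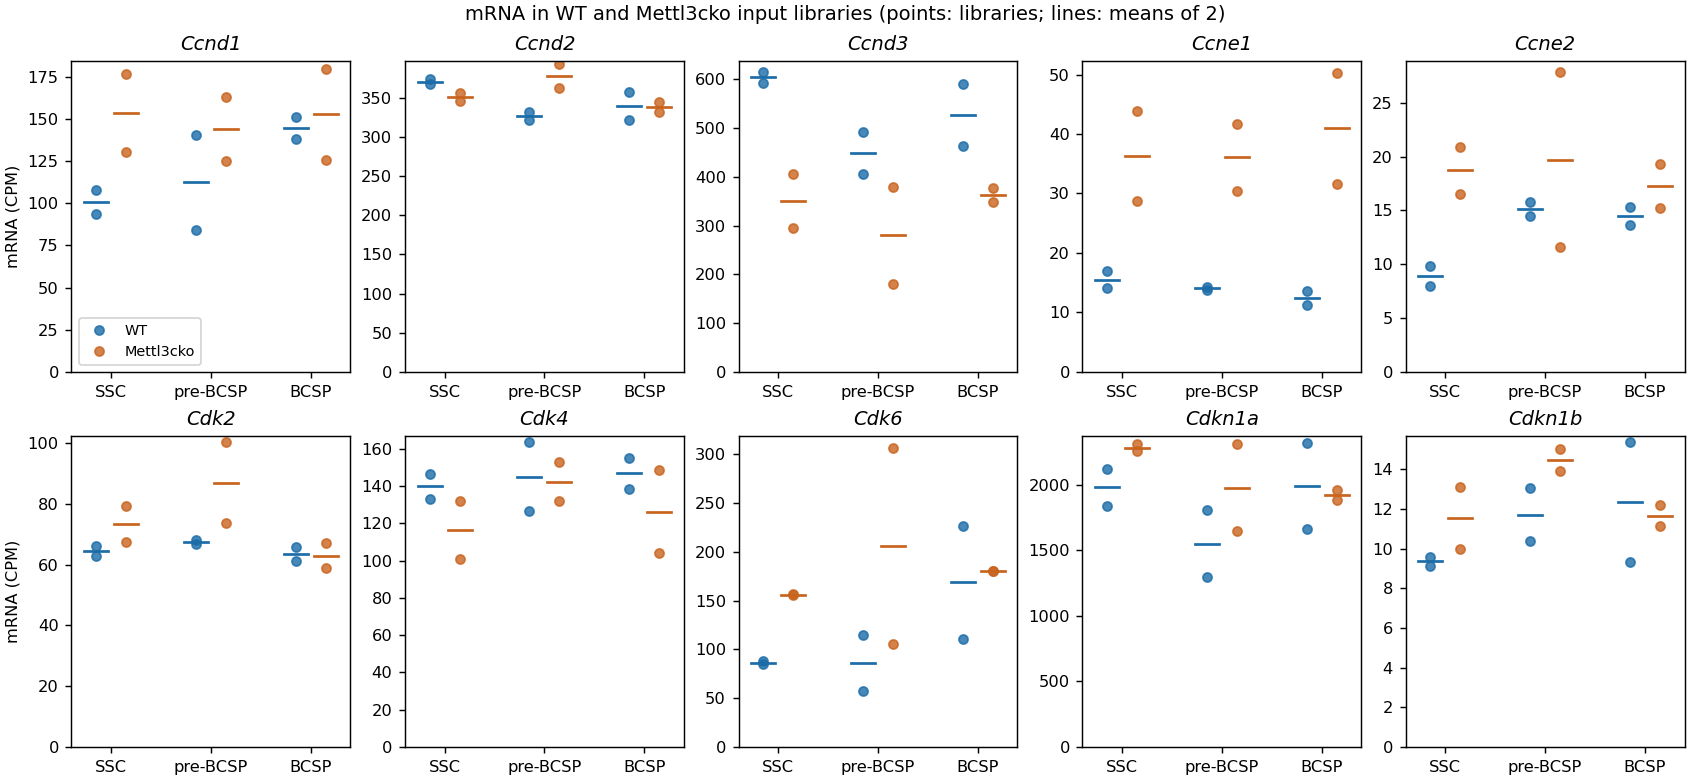
Level of mRNA of each member in WT libraries and libraries labelled Mettl3cko of SSC, pre-BCSP and BCSP, as CPM on a scale that differs by gene. Points are replicates and lines are means of 2. Ccne1 lies at 28.7 to 50.3 CPM in the Mettl3cko libraries and at 11.2 to 16.9 CPM in WT, with no overlap, and Ccnd3 lies at 181 to 407 CPM against 406 to 616 CPM.

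Ccne1 mRNA was higher in the libraries labelled Mettl3cko in all 3 populations, and Ccnd3 mRNA was lower. By the rule of the study's methods, a log2 fold change beyond 0.5 at an unadjusted p under 0.05, SSC had 5 members called: Ccne1, Ccne2, Cdk6 and Ccnd1 higher, which is 4 of 10 beside 6.96% of all genes, and Ccnd3 lower, beside 7.07%. In pre-BCSP Ccne1 was called, beside 3.88% of all genes higher and 4.48% lower. In BCSP Ccne1 was higher, beside 7.22%, and Ccnd3 lower, beside 5.72%. At an adjusted p under 0.05 no gene at all passed in any of the 3 populations with edgeR, where 2363 genes in SSC, 1341 in pre-BCSP and 2123 in BCSP had an unadjusted p under 0.05, and DESeq2 called 713, 161 and 580. The study tested several of these genes in SSC on its own account, so their names are not independent of its samples.

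Ccne1, the cyclin E1 gene, was read at 28.7 and 43.9 CPM in Mettl3cko SSC against 14.1 and 16.9 CPM in WT SSC. In pre-BCSP it was read at 41.7 and 30.4 CPM against 13.8 and 14.3 CPM. In BCSP it was read at 50.3 and 31.7 CPM against 11.2 and 13.7 CPM. All 6 Mettl3cko libraries were above all 6 WT libraries, an absence of overlap that 4.13% of all genes showed in either direction. The log2 changes were 1.23 ± 0.290 (adjusted p = 0.176, edgeR), 1.38 ± 0.290 (adjusted p = 0.569) and 1.71 ± 0.321 (adjusted p = 0.206). In 1 edgeR fit of the 12 input libraries the mean change over the 3 populations was 1.44 ± 0.181 (adjusted p = 0.00190). It was the 1 member of 10 called higher, beside 3.75% of all genes.

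Ccnd3 was read at 295 and 407 CPM in Mettl3cko SSC against 592 and 616 CPM, at 181 and 379 CPM in pre-BCSP against 406 and 493 CPM, and at 349 and 378 CPM in BCSP against 463 and 591 CPM. A single Mettl3cko SSC library, at 407 CPM, overlapped with the lowest WT library, at 406 CPM. The log2 changes were -0.79 ± 0.212 (adjusted p = 0.199, edgeR) in SSC, -0.67 ± 0.374 (adjusted p = 0.682) in pre-BCSP and -0.55 ± 0.219 (adjusted p = 0.357) in BCSP. Their mean was -0.66 ± 0.173 (adjusted p = 0.0430), which made Ccnd3 the 1 member of 10 called lower, beside 2.72% of all genes. The BCSP call was lost without either Mettl3cko replicate (-0.50 and -0.60) or WT replicate 2 (-0.36). The call of the mean was lost in 8 of 12 fits that each left out 1 library, with an adjusted p from 0.0504 to 0.105 and a change of -0.71 to -0.59: without either BCSP or SSC replicate 1 of Mettl3cko, without BCSP replicate 2 of Mettl3cko or of WT, and without either SSC or either pre-BCSP replicate of WT.

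Cdk6 was read at 157 and 156 CPM in Mettl3cko SSC against 88.1 and 84.9 CPM in WT (log2 change 0.85 ± 0.175, adjusted p = 0.161, edgeR). In pre-BCSP its Mettl3cko replicates stood at 306 and 106 CPM against 114 and 57.4 CPM (1.29 ± 0.568, adjusted p = 0.618), and in BCSP both stood at 180 CPM between WT values of 227 and 111 CPM (0.09 ± 0.325). The mean change was 0.75 ± 0.261 (adjusted p = 0.115). Ccne2 changed by 1.07 ± 0.306 in SSC (adjusted p = 0.208), by 0.40 in pre-BCSP and by 0.24 in BCSP, and Ccnd1 by 0.60 ± 0.210 in SSC (adjusted p = 0.260), by 0.38 and by 0.07. The SSC call of Ccnd1 was lost without Mettl3cko replicate 1 (0.38), WT replicate 1 (0.71) or WT replicate 2 (0.52), and that of Ccne2 without WT replicate 2 (0.95).

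Ccnd2, Cdk2, Cdk4, Cdkn1a and Cdkn1b passed the rule in none of the 3 populations. Their mean changes lay between -0.16 ± 0.132 for Cdk4 and 0.19 ± 0.194 for Cdkn1b. The test of a different change between the 3 populations called no member (adjusted p of 0.941 or more), and no gene in edgeR, where 839 genes had an unadjusted p under 0.05 and DESeq2 called 41. Of the cycling markers, Ccnb1 (1.26), Top2a (1.27) and Mki67 (1.28) were higher in the mean over the 3 populations, and their summed level was 352 to 545 CPM in Mettl3cko libraries against 314 to 391 CPM in WT. Mnat1 was lower (-0.76). No gene of the retinoblastoma and E2F list and none of the other inhibitors passed in that mean, and in single populations E2f8 in BCSP was the 1 gene of these lists past the rule (2.07 ± 0.649, adjusted p = 0.283). The part of the cycling markers and of the blood markers above in the changes of Ccne1 and Ccnd3 was not tested.

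The IP to input ratio was compared between the genotypes in the same 3 populations. Libraries were scaled on the premise that most genes do not change. Each ratio is thus relative to the other transcripts, and a shift shared by most of them would not be seen in full. In pre-BCSP 3 members had a lower ratio at an unadjusted p under 0.05, beside 9.87% of all genes: Cdk6 (-2.46 ± 0.816, adjusted p = 0.301, edgeR), Ccnd2 (-1.02 ± 0.378, adjusted p = 0.353) and Cdkn1a (-0.98 ± 0.381, adjusted p = 0.375). In SSC, beside 11.3% of all genes, and in BCSP, beside 7.82%, there was no such member. The median change of all genes was -0.16 in SSC, -0.26 in pre-BCSP and -0.10 in BCSP. All 3 calls were lost without WT replicate 2 of pre-BCSP, where Cdk6 had -2.27, Ccnd2 -1.02 and Cdkn1a -0.79, and those of Ccnd2 (-0.90) and Cdkn1a (-1.07) also without WT replicate 1. No gene passed at an adjusted p under 0.05 in any of these 3 edgeR fits, where 2505, 2087 and 1814 genes had an unadjusted p under 0.05 and DESeq2 called 1755, 973 and 746.

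**Figure D5:**
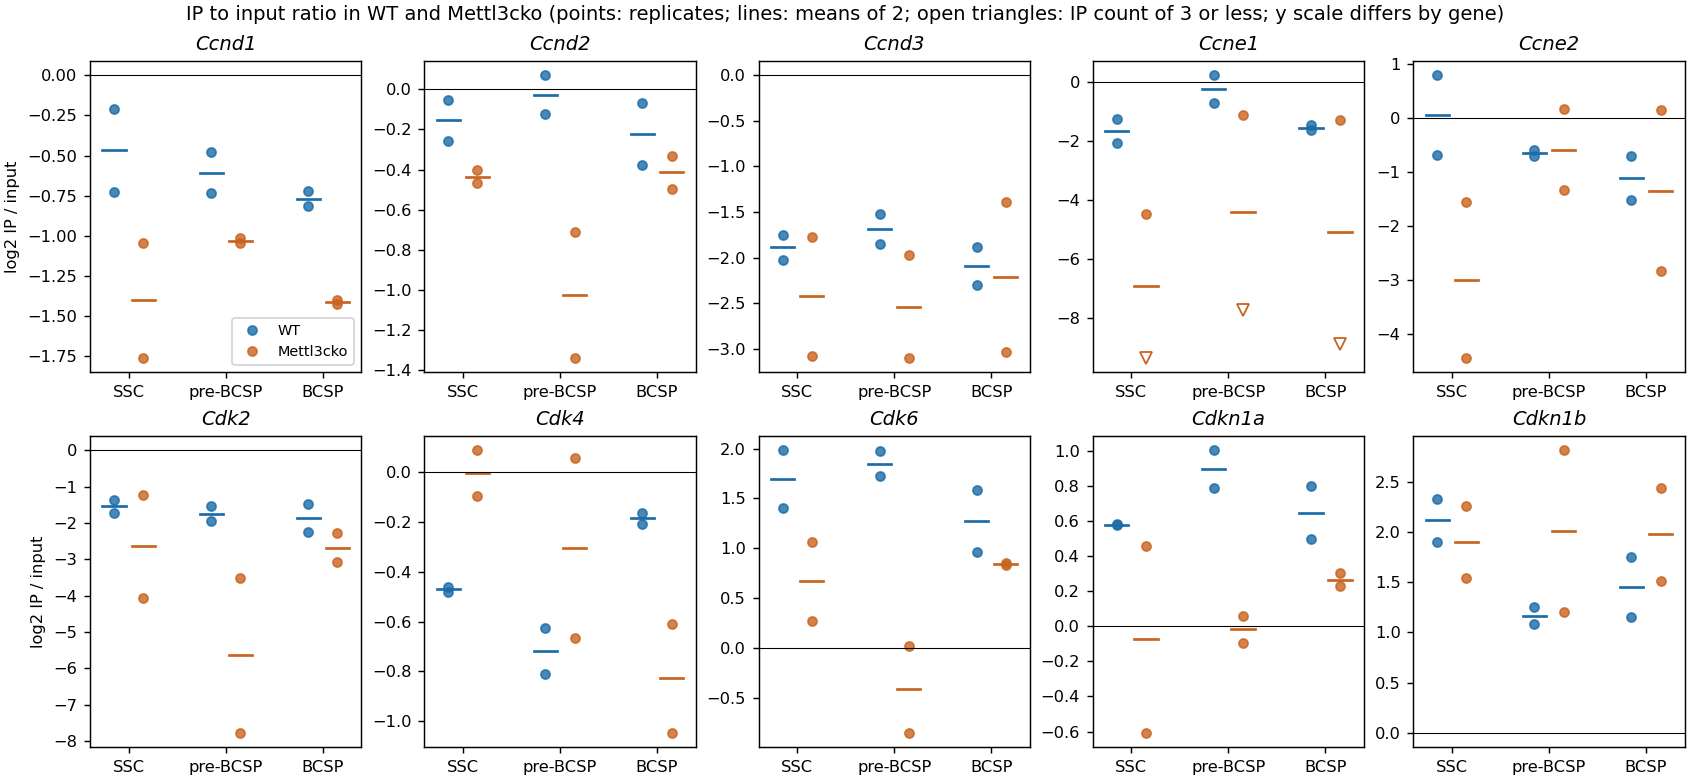
Log2 ratio of IP to input for each member in WT replicates and replicates labelled Mettl3cko of SSC, pre-BCSP and BCSP. Points are replicates, lines are means of 2, the scale differs by gene, and open triangles mark an IP count of 3 or less, where the plotted value rests on the added prior count. All 6 Mettl3cko ratios of Ccnd1 (-1.76 to -1.01) and Cdkn1a (-0.61 to 0.46) lie below all 6 WT ratios, and those of Cdkn1b (up to 2.81) do not.

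For Cdk6 the Mettl3cko replicates stood at 1.07 and 0.27 in SSC against 1.40 and 1.98 in WT, at -0.85 and 0.03 in pre-BCSP against 1.72 and 1.97, and at 0.85 and 0.83 in BCSP against 0.97 and 1.58. Thus 5 of 6 lay below every WT replicate. In 1 fit of the 24 libraries, chosen after the replicate values were seen, the mean change over the 3 populations was -1.25 ± 0.373 (adjusted p = 0.0694, edgeR), beside a median of -0.39 over all genes. With the IP and input libraries of a replicate as a block it was -1.24 (adjusted p = 0.0253, edgeR). Without Mettl3cko replicate 2 of all 3 populations, which leaves a lone replicate in each Mettl3cko group, it was -1.25. No other member came under 0.05 with the block, and 0 of 10 passed in the 24-library fit itself, where 3.3% of all genes were called lower.

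Ccnd1 and Cdkn1a were the members in which all 6 Mettl3cko ratios lay below all 6 WT ratios, beside 1.42% of all genes. Their mean changes were -0.67 ± 0.340 (adjusted p = 0.344) and -0.63 ± 0.240 (adjusted p = 0.157). Cdkn1b, which was tagged in every WT population, had 0 of 6 Mettl3cko ratios below the WT range, and its mean change was 0.48 ± 0.441 (adjusted p = 0.779). Being relative to other transcripts, these ratios do not measure how much m6A Cdkn1b held in either genotype. Ccnd2 changed by -0.48 ± 0.178 (adjusted p = 0.148), Ccnd3 by -0.44 ± 0.347, Cdk4 by 0.10 ± 0.257 and Ccne2 by -0.75 ± 0.762.

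Ccne1 and Cdk2 had few IP reads in some of the Mettl3cko libraries. The Ccne1 IP count was 24 and 0 in Mettl3cko SSC, 557 and 2 in pre-BCSP and 629 and 0 in BCSP, against 64 to 629 in the WT stem and progenitor libraries. Counts of 2 or less were in replicate 2 of all 3 populations, and SSC replicate 1, at 24, was also below every WT count. No fold is therefore given for Ccne1. The Cdk2 IP count was 7 in Mettl3cko pre-BCSP replicate 2 and 91 to 741 in the other 5 Mettl3cko IP libraries. In SSC it was 91 in replicate 1 (log2 ratio -4.06) and 741 in replicate 2 (-1.22, above every WT stem and progenitor replicate). With all replicates the mean change of Cdk2 was -1.31 ± 0.723 (adjusted p = 0.412, edgeR). Without Mettl3cko replicate 2 of all 3 populations it was -1.89. That setting leaves out both the lowest and the highest of these Cdk2 values, and leaves a lone replicate in each Mettl3cko group.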

How the data were processed

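SLIM-seq libraries (IP with an antibody against m6A, and input) of sorted mouse skeletal cells were analysed from 1 table of read counts per gene. Per the labels and the study's methods, the authors trimmed reads with fastp 0.20.1, aligned them with HISAT2 2.2.1 to GRCm38 (mm10) and made the deposited counts with featureCounts 2.0.1. The annotation and the strand setting are not given in the sources used here. IP and input libraries were amplified with a Smart-seq2 protocol without molecular identifiers, so counts are not independent molecules. From the table, 128 entries whose 2 names had turned into dates were left out (at most 0.390% of a library's counts). The other deposited files hold the authors' own comparisons of Mettl3cko and WT (fold changes and p-values) and were not used.

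Counts were filtered with filterByExpr, scaled with TMM and tested with edgeR 4.0.16 (quasi-likelihood, Benjamini-Hochberg over all genes tested, R 4.3.3). CPM values use TMM library sizes, and replicate ratios add a prior count of 2. Standard errors were taken from F and the log2 change (size over root of F). Counts simulated with 1 dispersion for all genes were run through some of the fits. These were mRNA among populations, IP against input in SSC, both genotype comparisons in SSC and the mean mRNA change. The ratio fits of 32 and 24 libraries and the block fits were not simulated. Tagged genes and changed genes follow the study's thresholds (log2 above 1, or beyond 0.5, at an unadjusted p under 0.05). Alternatives were DESeq2 1.42.0 and its size factors, library size alone, no filter, adjusted p in place of unadjusted, the replicate block, and leaving out each library in turn (100 fits). In those of the 32-library ratio fit, the dispersion trend of all libraries was kept. Comparisons of the populations and of the genotypes share the WT stem and progenitor libraries. All 10 members are named in every comparison, Mettl3 as the targeted gene, pathway genes only where they pass the test (at most 4 per list, by smallest p), and the genes most like a member by correlation over the 8 population means. The members, lists and tests were chosen with earlier results of these data known.

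The methods say that sorted cells of 1 batch were divided between IP and input. On that statement the replicate number was taken to pair these 2 libraries. Their deviations from the group mean correlated at 0.0178 to 0.237 over genes in 11 pairs, of which 4 were over 0.1. Input libraries of 2 WT populations correlated at -0.184 to 0.117, with SSC and pre-BCSP at 0.116 and pre-BCSP and BCSP at 0.117. Input libraries of the genotypes correlated at -0.00328 to 0.00560. The ranges for IP with input and for populations overlap, so these values do not settle which libraries share a sort. The labels do not pair populations or genotypes. The batch label is the same for all libraries. No replicate pair agreed within sampling noise.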

Additional observations from a re-analysis of the deposited data

Results flagged for a closer look

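The IP to input ratio of Cdkn1a differed between WT populations: the log2 ratio was 0.73 higher in SSC, pre-BCSP and BCSP than in the 5 downstream populations (adjusted p = 0.0158 in edgeR, n = 6 and 10 replicates), by a test of the difference itself. All 6 stem and progenitor replicates (0.49 to 1.00) lay above all 10 downstream replicates (-0.32 to 0.25). Cdkn1a mRNA was higher in the same populations (log2 difference 0.94), and mitochondrial genes took a smaller share of the counts of the IP libraries (1.56% to 2.92% against 4.53% to 9.10%). The part of either in the difference was not tested. The call was lost in 7 of 16 fits that each left out 1 replicate (adjusted p up to 0.112) and with DESeq2 size factors (0.56, adjusted p = 0.0675).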

How the results depend on the processing

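Over 2660 values of single members under an alternative, 2507 kept their side of the threshold, 72 lost a call, 81 gained one and 0 called values changed sign. The number of members that differed in mRNA among the 8 WT populations was 4, and 7 with DESeq2, 7 with no filter and 3 to 8 when 1 library was left out, with 7 without either 6C3 replicate and 8 without either PCP replicate. The count of members with another mRNA level in stem and progenitor cells was 6, 8 with no filter, and 4 to 7 when 1 library was left out. Tagged calls were 15, and 13 to 16. For the ratio among the 8 populations the count was 0, 1 with the replicate block and 0 to 0 without 1 replicate. For the ratio between both sets of populations it was 1, and 0 with DESeq2 size factors, 2 with DESeq2, 2 with no filter, 3 with the replicate block and 0 to 1 without 1 replicate. For mRNA of Mettl3cko against WT it was 8, 0 at an adjusted p under 0.05, and 6 to 13 without 1 library, of which 13 was reached without Mettl3cko pre-BCSP replicate 2. For the ratio of Mettl3cko against WT it was 3, and 5 with DESeq2, 0 at an adjusted p under 0.05, 6 with no filter and 0 to 9 without 1 replicate, with 9 without Mettl3cko SSC replicate 1, 5 without its replicate 2, 7 without Mettl3cko pre-BCSP replicate 1, and 1 and 0 without WT pre-BCSP replicates 1 and 2. The mean mRNA change had 2 calls, and 1 to 4 without 1 library (4 without Mettl3cko pre-BCSP replicate 2), and Ccne1 kept its call in each of these fits. The difference of that change between populations had 0 calls throughout. The 24-library ratio fit had 0 calls, and 1 with the replicate block. The mean mRNA change of Cdk6 passed with DESeq2 (0.76, adjusted p = 0.0253), with no filter (adjusted p = 2.25e-05) and with the replicate block (0.76, adjusted p = 0.0392). The labels do not say that the replicate numbers pair these samples. The fold of 4.38 for Cdkn1b without 6C3 replicate 1 was computed after the data were seen. The cause of these shifts was not tested.

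With 2 libraries per group, a left-out fit takes the spread of the lone library from the other groups. Counting error limits Ccne1, Ccne2 and Cdk2 in the IP libraries, where some counts were at or near 0. No value of single cells or of m6A sites is held in these counts, which sum reads over a whole gene.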
